A study of Mus musculus with 12 samples.

Results

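Stem cell transcription regulators were followed across the 6 groups of a mouse RNA-seq series. The 8 genes were Mecom, Hlf, Erg, Prdm16, Lmo2, Lyl1, Runx1 and Ndn, and they were chosen by name out of the 55471 genes counted. The choice of these genes and of the lists below was made with earlier results of these data known. Counts of calls set beside shares of all genes are therefore a description and no test of enrichment. All 8 passed the filter on low counts, which 17063 genes passed in all. The RNA came from LSK cells, the bone marrow fraction sorted as lacking lineage markers and carrying Sca1 and Kit, in which stem cells and early progenitors lie, taken from primary transplanted mice 6 weeks after they had received tamoxifen. The groups, with 2 libraries each, were dKO (β-catenin and Hoxa9 both targeted), HOXA9_KO, Bcat_KO (β-catenin, gene Ctnnb1) and WT in a first experiment, and PRMT1_KO and WT_PRMT1 in a second. The titles call the targeted groups KO and the genotype field calls them knockdown. The sources used here give neither strain, age, sex nor Cre driver, and do not say whether 2 libraries of 1 group stand for separate mice, so p-values measure the spread between libraries, which may be technical. The series title sets β-catenin and Hoxa9, in dependence on the arginine methyltransferase Prmt1, beside DNA replication, genome integrity and the function of stem cells.

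Blood stem cells are held in an undecided, mostly quiescent state by a network of transcription factors that bind many of the same enhancers. Runx1, Erg, Lmo2 and Lyl1 belong, with Tal1, Gata2 and Fli1, to a group of factors that occupy shared sites in blood progenitors, and Lmo2 is the adaptor that joins E-box binding proteins such as Lyl1 and Tal1 to GATA factors. Mecom and Prdm16 are related zinc finger proteins with a PR domain, and both are needed to maintain stem cells in the mouse. Hlf, a bZIP factor of the PAR family, marks immature stem cells, and Ndn encodes necdin, a growth-restraining protein of the MAGE family, from an imprinted gene expressed from the paternal allele.

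Before any comparison, several facts of the libraries touch all results. Total counts per library ran between 17569709 and 40553891, and the lowest count of any of the 8 genes in a library was 42, for Ndn in PRMT1_KO S8. The targeted genes were lower where targeted. The log2 fold change ± SE of Hoxa9 was -2.71 ± 0.17 in dKO and -2.53 ± 0.17 in HOXA9_KO, that of Ctnnb1 was -0.51 ± 0.07 in dKO and -0.28 ± 0.07 in Bcat_KO, and that of Prmt1 was -1.33 ± 0.07 in PRMT1_KO. The Ctnnb1 call in Bcat_KO (adjusted p = 0.0170) was lost without Bcat_KO S3, Bcat_KO S4 or WT S2 and with library-size scaling (adjusted p up to 0.185). The female-typed RNA Xist stood at no more than 0.758 CPM in dKO, HOXA9_KO and PRMT1_KO and at 11.2 and 21.9 CPM in Bcat_KO, against 163 and 182 CPM in WT and 169.9 and 202 CPM in WT_PRMT1. The Y-linked gene Ddx3y stood at 60.6 to 93.5 CPM in the 4 targeted groups and at 0.792 to 2.87 CPM in WT and WT_PRMT1, so a genotype effect and a sex effect cannot be told apart in any comparison with WT or WT_PRMT1. Bcat_KO stood apart by its low lineage markers, which summed to 50.9 and 53.4 CPM, against 311 to 2094 CPM in the other groups. Kit, by which the cells were sorted, was at 330.3 and 308 CPM in PRMT1_KO, against 144 and 139 CPM in WT_PRMT1, and at 269 to 461 CPM in the first experiment. Ly6a, which encodes Sca1, was at 298 and 270.3 CPM in PRMT1_KO, against 99.6 and 86.9 CPM in WT_PRMT1, and at 73.7 to 199 CPM in the first experiment. Of 9 tested markers of LSK cells, 3 rose and 3 fell in dKO, 4 rose and 2 fell in HOXA9_KO, 2 rose and 2 fell in Bcat_KO, and 5 rose and 1 fell in PRMT1_KO. Among all genes tested, 17.7, 6.73, 17.2 and 32.5% rose or fell in the same order. Cd34, a marker of progenitors, was at 260.4 and 191 CPM in dKO, against 765 and 715 CPM in WT, and Flt3, of multipotent progenitors, at 133 and 82.9 CPM in dKO, against 537 and 421 CPM in WT. Slamf1, a marker of stem cells, was at 43.7 and 67.6 CPM in dKO, against 8.32 and 7.87 CPM in WT. It was at 42.3 and 38.3 CPM in HOXA9_KO and 15.3 and 16.1 CPM in Bcat_KO. In PRMT1_KO it was at 18.3 and 16.9 CPM, against 1.25 and 2.52 CPM in WT_PRMT1. Flt3 was at 162 and 167 CPM in HOXA9_KO and 253 and 264 CPM in Bcat_KO. In PRMT1_KO Flt3 was not lower, at 523 and 520 CPM, against 453 and 495 CPM in WT_PRMT1. Cd34 was at 422 and 345 CPM in HOXA9_KO and 742 and 769 CPM in Bcat_KO. The 7 stromal markers summed to 95.7 and 104 CPM in PRMT1_KO, against 288 and 559.8 CPM in WT_PRMT1, and to 27.6 to 38.5 CPM in the first experiment. They did not move as a set, since 1 of the 7 rose and 2 fell in PRMT1_KO. Pdgfrb was at 69.1 and 81.0 CPM in PRMT1_KO, against 27.9 and 26.1 CPM in WT_PRMT1. Col1a1 was at 1.53 and 1.52 CPM in PRMT1_KO, against 144 and 313 CPM in WT_PRMT1. The part of these markers in the values below was not tested.

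Per kilobase of exon, the scale on which levels can be compared between genes, Lmo2 was the most abundant of the 8, at 159 to 342 CPM per kilobase over the 12 libraries. Lyl1 followed at 54.8 to 74.2, Erg at 27.0 to 52.1 and Hlf at 13.6 to 35.0 CPM per kilobase. Runx1 lay at 6.57 to 12.4, Mecom at 1.39 to 12.3, Ndn at 0.604 to 7.13 and Prdm16 at 0.598 to 5.10 CPM per kilobase. The stem cell adaptor and its E-box partner were thus expressed far above both PR domain genes, and the genes with the lowest levels varied most between groups. The mean of the highest group exceeded that of the lowest 8.10 times for Ndn, 6.10 times for Mecom and 5.71 times for Prdm16, and 1.29 times for Lyl1. All other levels below are CPM, counts divided by the library's total after TMM scaling and brought to a common total, which are comparable between libraries of 1 gene but not between genes.

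Between targeted cells and their wild-type cells, some of the 8 genes moved in each comparison, and Prdm16 was called in all 4. A call means an adjusted p under 0.05 over all 17063 genes, with edgeR's quasi-likelihood test and Benjamini-Hochberg adjustment. In dKO against WT, 2 genes were higher (Prdm16, Ndn) and 2 lower (Hlf, Lyl1), that is 4 of 8, where 17.7% of all genes were called (9.15% higher, 8.52% lower). In HOXA9_KO against WT, 2 of 8 were called (Prdm16 and Ndn, both higher), against 6.73% of all genes (4.44% higher, 2.30% lower). In Bcat_KO against WT, 3 of 8 were called (Prdm16, Runx1 and Erg, all higher), against 17.2% of all genes (7.48% higher, 9.76% lower). In PRMT1_KO against WT_PRMT1, 5 of 8 were called, Prdm16 and Lmo2 higher and Runx1, Ndn and Erg lower, against 32.5% of all genes (16.6% higher, 16.0% lower). The median log2 fold change of the 8 genes was 0.12, 0.13, 0.13 and -0.20 in these comparisons in the same order, beside medians over all genes of 0.0069, -0.0041, -0.038 and -0.030. The dKO, HOXA9_KO and Bcat_KO comparisons share the WT libraries. With 2 libraries per group, libraries can fail to overlap without a called change, as for Mecom in Bcat_KO (0.18, adjusted p = 0.782). The share of all genes without overlap was not counted, so overlap is given below as a description only.

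**Figure D1:**
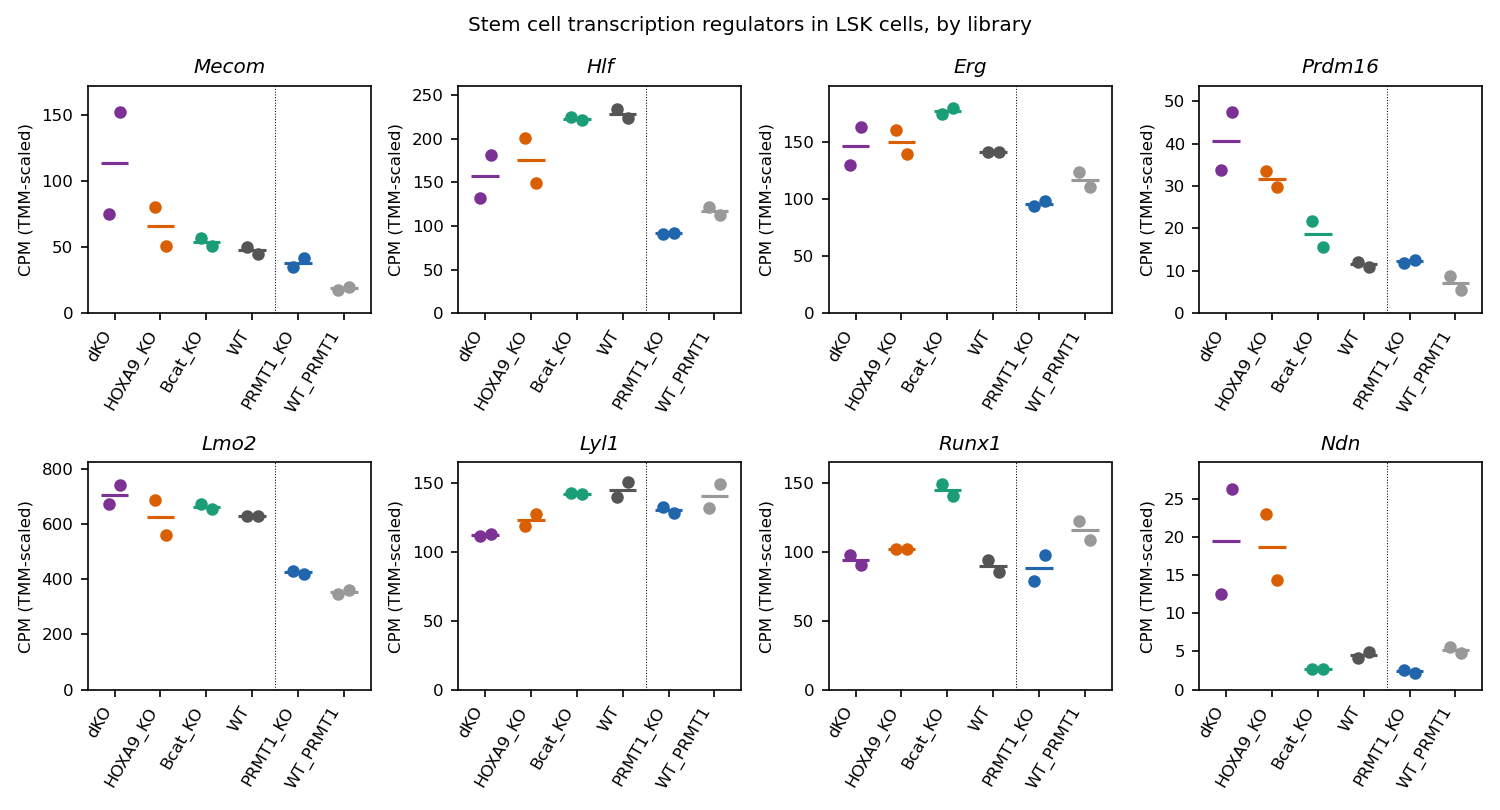
Level of each gene (TMM-scaled CPM, linear axes from 0) in the 12 libraries, by group. Points are libraries, bars the means of 2, and the dotted line parts the first experiment from the second. Prdm16 and Ndn lie highest in dKO and HOXA9_KO, Runx1 lies highest in Bcat_KO, and Lmo2, Hlf and Erg lie lower in both groups of the second experiment.

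**Figure D2:**
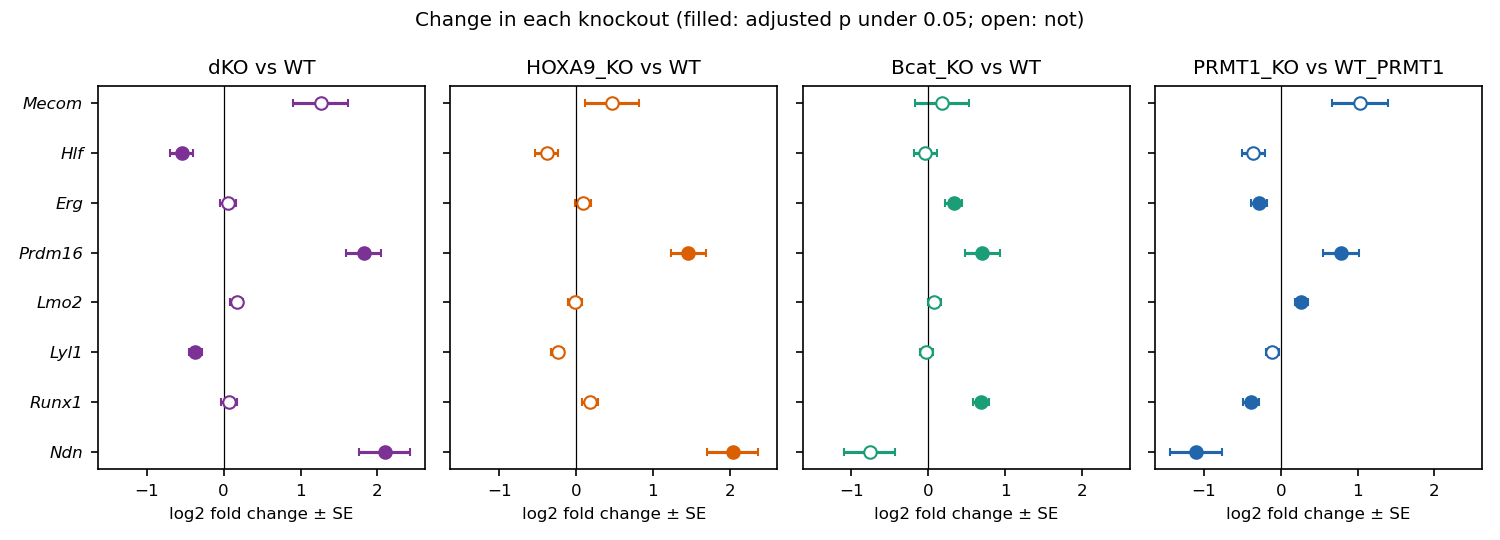
Log2 fold change ± SE of the 8 genes in the 4 targeted groups against their own wild-type cells, 2 libraries each. Filled points are called at adjusted p under 0.05. Prdm16 is the gene filled in all 4 panels, and Ndn lies right of 0 in dKO and HOXA9_KO and left of 0 in Bcat_KO and PRMT1_KO.

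Prdm16, a PR domain factor required for stem cell maintenance and also known for its part in brown fat, was higher in all 4 targeted groups. The gene (ENSMUSG00000039410) spans chromosome 4 from 154316125 to 154636873 on the minus strand of GRCm38, with 19 exons. It had 33.7 and 47.6 CPM in dKO, 33.5 and 29.8 CPM in HOXA9_KO and 21.9 and 15.6 CPM in Bcat_KO, against 12.1 and 10.9 CPM in WT. In the second experiment it had 11.8 and 12.6 CPM in PRMT1_KO, against 8.66 and 5.57 CPM in WT_PRMT1. No targeted library overlapped its own wild-type libraries, and the first-experiment groups lay in the order dKO, HOXA9_KO, Bcat_KO, WT with no overlap between neighbours. Prdm16 rose by 1.82 ± 0.23 on the log2 scale in dKO (adjusted p = 2.94e-05, 95% interval 1.34 to 2.31) and by 1.46 ± 0.23 in HOXA9_KO (adjusted p = 0.000637, interval 0.98 to 1.94), and these calls held in each alternative tried. The rise of 0.70 ± 0.23 in Bcat_KO (adjusted p = 0.0419) was lost without Bcat_KO S3 (0.42, adjusted p = 0.268), WT S1 (0.127) or WT S2 (0.203), when only these groups were fitted (0.0592) and without the robust option of the fit (0.0734). The rise of 0.78 ± 0.23 in PRMT1_KO (adjusted p = 0.0148) was lost without PRMT1_KO S9 (0.0769) or WT_PRMT1 S11 (0.52, adjusted p = 0.190), and was 0.64 with library-size scaling (0.0532).

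Mecom, which encodes the EVI1 and MDS1-EVI1 proteins and is required for long-term stem cells in the mouse, had its highest single value in dKO. It spans chromosome 3 from 29951296 to 30548008 on the minus strand (ENSMUSG00000027684, 24 exons). Its levels were 75.5 and 153 CPM in dKO, 80.7 and 51.0 CPM in HOXA9_KO and 56.8 and 50.9 CPM in Bcat_KO, against 49.8 and 45.1 CPM in WT. They were 35.0 and 41.5 CPM in PRMT1_KO, against 17.3 and 20.1 CPM in WT_PRMT1. Each targeted group lay wholly above its own wild-type cells, but the 2 dKO libraries differed 2.02 times and dKO overlapped HOXA9_KO. The change in dKO, 1.26 ± 0.36, did not pass (adjusted p = 0.0566, 95% interval 0.41 to 2.12), nor did that in PRMT1_KO, 1.03 ± 0.36 (adjusted p = 0.0747, interval 0.16 to 1.91). DESeq2 called both (adjusted p = 0.00282 in dKO and 0.0120 in PRMT1_KO), as did edgeR without the robust option (0.0113 and 0.0188). The change in dKO was also called with a filter at a mean of at least 5 CPM (0.0357). That in PRMT1_KO was also called when only those groups were fitted (5.59e-05), so both depend on the settings of the fit. The change in dKO was 1.67 without dKO S6 and 0.66 without dKO S7. The values in HOXA9_KO, 0.47 ± 0.35, and in Bcat_KO, 0.18 ± 0.35, had intervals from -0.38 to 1.32 and from -0.66 to 1.02.

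The start regions of these 2 PR domain genes are shown because both had higher values than wild type in each targeted group, though Mecom was called in none. They come from RefSeq on GRCm38.p6, the first whole up to the start of Prdm16. The second is a stretch of 30 bases upstream of the more distal RefSeq start of Mecom. The counted Mecom gene begins further upstream, at 30548008. Of the 250 bases before this RefSeq start 63 lie in counted exons, and whether the printed bases are among them was not tested. Capitals mark a match to the E-box CAGATG, read on the reverse strand, and to the TCF/LEF motif ATCAAAG.
Prdm16 upstream (chr4:154636874-154637123, minus strand): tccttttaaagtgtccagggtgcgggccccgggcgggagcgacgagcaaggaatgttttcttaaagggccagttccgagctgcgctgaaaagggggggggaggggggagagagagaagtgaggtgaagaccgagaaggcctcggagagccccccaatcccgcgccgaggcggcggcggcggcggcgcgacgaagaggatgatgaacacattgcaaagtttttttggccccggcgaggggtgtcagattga
Mecom distal upstream (chr3:30509790-30509819, minus strand): tgcCATCTGacaagatctccaaATCAAAGt
Among 32851 windows of the same 250 bases upstream of a start site, 25.5% held an E-box (CAGCTG or CAGATG, both strands) and 3.21% held ATCAAAG. The Mecom window was the 1 of 11 windows for 7 of the 8 genes that held either, with the E-box 57 to 52 and the TCF/LEF match 38 to 32 bases before the start. The Prdm16 window held none of the motifs searched, which also were the GATA-factor motif AGATAA, the ETS motifs CCGGAAGT and ACAGGAAG, the RUNX motif TGTGGT, the HOX-PBX motif TGATTNAT and the PAR bZIP motif TTACGTAA. Its GC content was 62.4%, against a median of 52.4% over all windows. A match describes these letters only.

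Megakaryocyte genes, some of which platelet-biased stem cells also express, were higher in the 4 targeted groups, in which Prdm16 was called higher and Mecom did not pass. The summed level of the 10 markers was 1529 and 1631 CPM in dKO, 999 and 1041 CPM in HOXA9_KO and 530.0 and 530.1 CPM in Bcat_KO, against 321 and 357 CPM in WT, and 1140.4 and 1186 CPM in PRMT1_KO, against 180.2 and 181 CPM in WT_PRMT1. Of the 9 markers tested, 7 rose in dKO, 5 in HOXA9_KO, 4 in Bcat_KO and 8 in PRMT1_KO, and none fell. Of all genes, 9.15, 4.44, 7.48 and 16.6% were called higher in the same order. Gp1bb, which encodes a platelet receptor subunit, was at 0 in 8 of 12 libraries and at most at 0.387 CPM. In bulk RNA more cells of a type and more RNA per cell cannot be told apart, and the part of these cells in the results was not tested.

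**Figure D3:**
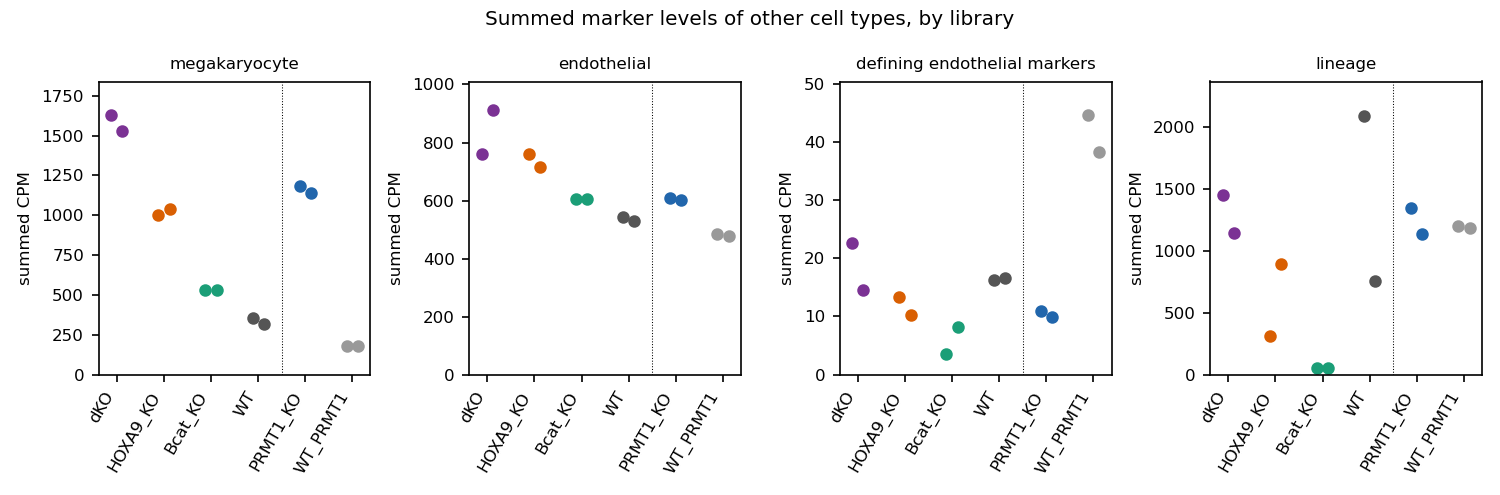
Summed CPM of marker genes of other cell types in each library, by group, on linear axes from 0. Megakaryocyte genes lie higher in each targeted group than in its own wild-type cells, the 5 defining endothelial markers stay under 45 CPM, and the lineage sum is lowest in Bcat_KO, at 50.9 and 53.4 CPM.

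Ndn rose in dKO and in HOXA9_KO and fell in PRMT1_KO. The gene has 1 exon on chromosome 7, from 62346569 to 62350262 on the plus strand (ENSMUSG00000033585), and its protein, necdin, restrains cell cycle entry and promotes quiescence of blood stem cells in the mouse. It stood at 12.5 and 26.3 CPM in dKO, 23.0 and 14.4 CPM in HOXA9_KO and 2.67 and 2.69 CPM in Bcat_KO, against 4.18 and 4.90 CPM in WT. In the second experiment it stood at 2.57 and 2.23 CPM in PRMT1_KO, against 5.55 and 4.76 CPM in WT_PRMT1. The dKO and HOXA9_KO libraries overlapped each other and lay above all others, and Bcat_KO and PRMT1_KO lay below both wild-type groups. The log2 rise was 2.10 ± 0.33 in dKO (adjusted p = 0.000231, 95% interval 1.40 to 2.79) and 2.04 ± 0.33 in HOXA9_KO (adjusted p = 0.000821, interval 1.34 to 2.73), and both calls held in each alternative tried. Without dKO S7, the higher dKO library, the rise in dKO was 1.45. In Bcat_KO the value was -0.76 ± 0.33 and did not pass (adjusted p = 0.119). In PRMT1_KO Ndn fell by 1.10 ± 0.34 (adjusted p = 0.0184), a call lost without PRMT1_KO S8 (0.0559), PRMT1_KO S9 (0.125) or WT_PRMT1 S10 (0.0990).

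The difference between the dKO change and the PRMT1_KO change of Ndn, each taken against its own wild-type cells, was itself tested. It was 3.20 ± 0.47 (adjusted p = 0.000185, 95% interval 2.20 to 4.19) and was called in each alternative tried. In this test 3 of the 8 genes were called, all higher, where 15.7% of all genes were called (7.93% higher, 7.75% lower). The other two were Prdm16, 1.04 ± 0.32 (adjusted p = 0.0367), and Runx1, 0.45 ± 0.15 (adjusted p = 0.0446). The Prdm16 call was lost without dKO S7, PRMT1_KO S8, PRMT1_KO S9, WT S1, WT S2 or WT_PRMT1 S10, with the highest adjusted p, 0.243, without WT_PRMT1 S10. The Runx1 call was lost without dKO S6, PRMT1_KO S8, WT S1, WT S2, WT_PRMT1 S10 or WT_PRMT1 S11, with the highest adjusted p, 0.247, without PRMT1_KO S8. The value of Prdm16 without WT_PRMT1 S10 was 0.67. Without the robust option both calls were lost as well (0.0719 for Prdm16 and 0.0723 for Runx1), as was that of Runx1 when only the 4 groups were fitted (0.0612).

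Ndn lies in an imprinted domain, so its neighbours there were read too. Of the 6 listed neighbours 4 were tested in each comparison, and 1, Snrpn, was called in dKO against WT (1 higher, 0 lower), with 0 called in HOXA9_KO, Bcat_KO or PRMT1_KO. Snrpn, which encodes a splicing protein, was at 0.736 and 2.69 CPM in dKO, against 0.105 and 0 CPM in WT, so that a few counts carry its call. The call was lost without dKO S7, WT S1 or WT S2 and without the robust option. Snurf, a listed neighbour that was not tested, was at 0 CPM in all 12 libraries. Ube3a, a ubiquitin ligase gene of the domain, was at 29.1 and 37.6 CPM in dKO, 36.7 and 28.2 CPM in HOXA9_KO, 30.6 and 29.5 CPM in Bcat_KO and 32.2 and 35.1 CPM in WT, where dKO and HOXA9_KO spanned both WT libraries.

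Runx1, the core-binding factor that starts definitive blood formation and shapes its lineages, rose in Bcat_KO and was not called in dKO or HOXA9_KO. It spans chromosome 16 from 92601466 to 92826149 on the minus strand (ENSMUSG00000022952, 9 exons). Its levels were 97.4 and 90.4 CPM in dKO, 102 and 102 CPM in HOXA9_KO and 149 and 140.4 CPM in Bcat_KO, against 94.3 and 85.4 CPM in WT. They were 79.0 and 97.4 CPM in PRMT1_KO, against 123 and 109 CPM in WT_PRMT1. Both Bcat_KO libraries lay above all other libraries, whereas the dKO libraries overlapped WT. Runx1 rose by 0.69 ± 0.10 in Bcat_KO (adjusted p = 0.000313, 95% interval 0.47 to 0.91), a call that held in each alternative tried. In dKO the value was 0.06 ± 0.10 (adjusted p = 0.760, interval -0.16 to 0.28) and in HOXA9_KO 0.18 ± 0.10 (adjusted p = 0.369, interval -0.04 to 0.40). In PRMT1_KO Runx1 fell by 0.39 ± 0.10 (adjusted p = 0.00737), a call lost without PRMT1_KO S8 (-0.24, adjusted p = 0.180) or WT_PRMT1 S10 (0.113).

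The Runx1 change in dKO was not the sum of the single changes. The changes in HOXA9_KO and Bcat_KO added up to 0.87 on the log2 scale, against 0.06 measured in dKO, and the departure from additivity was -0.81 ± 0.15 (adjusted p = 0.00325, 95% interval -1.12 to -0.50). It ranged between -0.89 and -0.72 over the alternatives and was called in each. The sum crosses the difference in sex-typed RNAs between targeted and wild-type cells once more than the dKO change does, and 4 of 5 sex-typed genes were called lower in this test (median -4.46), so a departure by genotype and one by sex cannot be told apart. Runx1 was the 1 gene of 8 called in this test, where 8.43% of all genes were called (4.54% higher, 3.90% lower). For Prdm16 the single changes added up to 2.16, against 1.82 in dKO, with a departure of -0.34 ± 0.31 (adjusted p = 0.558). For Ndn they added up to 1.28, against 2.10, with a departure of 0.82 ± 0.45 (adjusted p = 0.284, interval -0.13 to 1.77). For Mecom the departure was 0.61 ± 0.50 (adjusted p = 0.521), an interval of -0.58 to 1.80 that leaves its size undetermined with 2 libraries per group.

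**Figure D4:**
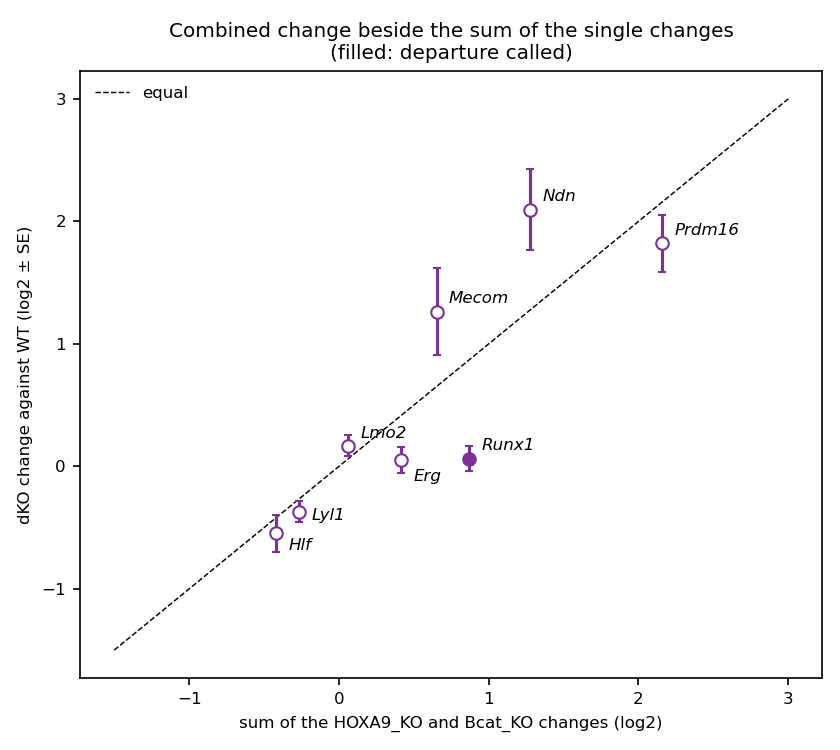
Log2 change of each gene in dKO against WT (vertical axis, ± SE) beside the sum of its HOXA9_KO and Bcat_KO changes (horizontal axis), with the line of equality. Runx1 is the 1 filled point, a called departure, at 0.06 against a sum of 0.87. The 3 comparisons share the WT libraries.

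Runx1 is transcribed from a distal and a proximal promoter, and the bases upstream of both RefSeq starts (GRCm38.p6) are shown since the counts, made per gene, do not tell the 2 apart. Neither stretch holds a match to the motifs searched, so no base is in capitals. The distal stretch ends where the counted exons of the gene begin.
Runx1 distal upstream (chr16:92826150-92826324, minus strand): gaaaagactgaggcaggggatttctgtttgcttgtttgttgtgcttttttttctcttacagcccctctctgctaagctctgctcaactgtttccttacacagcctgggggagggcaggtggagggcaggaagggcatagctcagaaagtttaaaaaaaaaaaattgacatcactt
Runx1 proximal upstream (chr16:92697330-92697579, minus strand): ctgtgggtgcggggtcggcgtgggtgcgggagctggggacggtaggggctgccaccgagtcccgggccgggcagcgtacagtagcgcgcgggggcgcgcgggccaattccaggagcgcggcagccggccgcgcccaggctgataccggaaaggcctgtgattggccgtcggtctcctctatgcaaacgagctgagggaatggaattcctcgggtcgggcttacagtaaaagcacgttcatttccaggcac
The distal stretch was 45.1% GC and the proximal stretch 67.6% GC, on either side of the median of 52.4% over all windows. The RUNX motif TGTGGT itself stood in 14.0% of all windows and in 0 of the 11 windows of these genes.

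The binding partner of Runx1 fell in PRMT1_KO and a paralog in dKO. Cbfb, the subunit that stabilises RUNX proteins on DNA, was at 183 and 174 CPM in PRMT1_KO, against 284 and 303 CPM in WT_PRMT1, where it fell by 0.71 ± 0.08 (adjusted p = 2.35e-06). Runx2, a paralog known for bone formation, was at 43.5 and 44.9 CPM in dKO, against 75.6 and 66.6 CPM in WT, where it fell by 0.69 ± 0.11 (adjusted p = 0.000212). Cbfa2t3, a corepressor of the ETO family, fell by 0.99 ± 0.12 in PRMT1_KO (adjusted p = 5.86e-06), with 49.8 and 58.4 CPM, against 113 and 101 CPM in WT_PRMT1.

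Among the targeted groups of the first experiment, dKO and HOXA9_KO differed in 0 of 5 sex-typed genes called, and each differed from Bcat_KO in 2 of 5. Besides Xist, the Y-linked gene Eif2s3y was at 54.9 and 60.3 CPM in dKO and 52.6 and 53.3 CPM in HOXA9_KO, against 36.7 and 33.3 CPM in Bcat_KO. Of the 8 genes none of the 8 genes was called in dKO against HOXA9_KO. With edgeR 0 of 8 passed, 0 had an unadjusted p under 0.05 and DESeq2 called 0, where edgeR called 1.75% of all genes (0.416% higher, 1.33% lower). The 95% intervals of this difference were -0.11 to 0.83 for Prdm16, -0.60 to 0.71 for Ndn and -0.05 to 1.64 for Mecom. The Mecom difference was 1.21 without dKO S6, where it was called (adjusted p = 0.0160), and 0.19 without dKO S7 (adjusted p = 0.937). The Lmo2 difference was called without HOXA9_KO S4, at 0.35 (adjusted p = 0.0481).

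In dKO against Bcat_KO, 5 of 8 were called, 2 higher and 3 lower, where 28.1% of all genes were called (16.2% higher, 12% lower). Ndn was higher by 2.86 ± 0.34 (adjusted p = 1.36e-05) and Prdm16 by 1.12 ± 0.22 (adjusted p = 0.00134), and Runx1 was lower, at -0.62 ± 0.10 (adjusted p = 0.000293). Lyl1 (-0.34 ± 0.09, adjusted p = 0.00677) and Hlf (-0.51 ± 0.15, adjusted p = 0.0270) were lower as well. The Lyl1 call was lost without Bcat_KO S3 (0.0580) or S4 (0.0560), and the Hlf call without Bcat_KO S3 (0.117), Bcat_KO S4 (0.115) or dKO S6 (-0.30, adjusted p = 0.121). In HOXA9_KO against Bcat_KO, 3 of 8 were called, 2 higher and 1 lower, where 17.3% of all genes were called (10.8% higher, 6.52% lower). Ndn was higher by 2.80 ± 0.34 (adjusted p = 4.03e-05), Prdm16 higher by 0.76 ± 0.22 (adjusted p = 0.0264) and Runx1 lower, at -0.50 ± 0.10 (adjusted p = 0.00306). The Prdm16 call was lost without Bcat_KO S4 (0.176) or HOXA9_KO S4 (0.115) and without the robust option (0.0521). Ndn and Runx1 thus set the groups with Hoxa9 targeted apart from Bcat_KO in opposite directions, in comparisons that share the Bcat_KO libraries.

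Lmo2, Lyl1 and Erg, which share binding sites with Runx1, changed by no more than 0.37 on the log2 scale between a targeted group and WT. Lmo2 (ENSMUSG00000032698, chromosome 2, 103957986 to 103981878, plus strand, 6 exons) had 671 and 742 CPM in dKO, 687 and 559.8 CPM in HOXA9_KO and 672 and 653 CPM in Bcat_KO, against 627 and 631 CPM in WT. It had 431 and 419 CPM in PRMT1_KO, against 345 and 362 CPM in WT_PRMT1. HOXA9_KO spanned both WT libraries, and PRMT1_KO lay above WT_PRMT1 but below every library of the first experiment. Lmo2 was not called in the first experiment, with intervals of -0.01 to 0.35 in dKO, -0.19 to 0.17 in HOXA9_KO and -0.11 to 0.26 in Bcat_KO. In PRMT1_KO it rose by 0.27 ± 0.09 (adjusted p = 0.0238). That call was lost without PRMT1_KO S8 (0.102), PRMT1_KO S9 (0.0597) or WT_PRMT1 S10 (0.142), and with library-size scaling the value was 0.13 (0.381).

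Lyl1 is a basic helix-loop-helix factor close to Tal1 that keeps blood progenitors alive. The gene (ENSMUSG00000034041, chromosome 8, 84701449 to 84704940, plus strand, 4 exons) had 112 and 113 CPM in dKO, 119 and 128 CPM in HOXA9_KO and 143 and 142 CPM in Bcat_KO, against 139.8 and 151 CPM in WT. It had 133 and 128 CPM in PRMT1_KO, against 132 and 149.6 CPM in WT_PRMT1. The dKO libraries were the lowest of all 12, and Bcat_KO lay within the WT range. Lyl1 fell by 0.37 ± 0.09 in dKO (adjusted p = 0.00533), a call lost without WT S2 (0.130). The values in HOXA9_KO (-0.24 ± 0.09, adjusted p = 0.119) and PRMT1_KO (-0.11 ± 0.09, adjusted p = 0.363) did not pass. Its exons overlap those of Nfix, a transcription factor gene on the opposite strand, by 229 bases, and whether the counting used strand was not stated in the sources read here, so reads of the 2 genes there cannot be told apart. Nfix had 98.8 and 111 CPM in dKO, where Lyl1 lay lower, against 65.5 and 59.3 CPM in WT. It had 114 and 95.1 CPM in HOXA9_KO. In Bcat_KO, where Lyl1 lay within the WT range, Nfix was also higher, at 102 and 102 CPM. The part of Nfix in the Lyl1 counts was not tested.

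Erg, an ETS factor needed to maintain stem cells in the mouse, lies on chromosome 16 from 95359169 to 95586593 on the minus strand (ENSMUSG00000040732, 13 exons). It had 130.3 and 163 CPM in dKO, 161 and 139 CPM in HOXA9_KO and 175 and 180.4 CPM in Bcat_KO, against 141 and 142 CPM in WT. It had 93.7 and 98.6 CPM in PRMT1_KO, against 124 and 111 CPM in WT_PRMT1. Bcat_KO lay above and PRMT1_KO below every other library, while dKO and HOXA9_KO spanned WT. Erg rose by 0.33 ± 0.10 in Bcat_KO (adjusted p = 0.0403) and fell by 0.29 ± 0.11 in PRMT1_KO (adjusted p = 0.0459). Each call was lost when any 1 of its 4 libraries was left out, with adjusted p between 0.0937 and 0.188 in Bcat_KO and between 0.0665 and 0.338 in PRMT1_KO. Both were lost without the robust option (0.0697 and 0.0753), and the call in PRMT1_KO also with RLE size factors (0.0508) or TMM without mitochondrial and haemoglobin genes (0.0538). Endothelial cells also express Erg. The 14 endothelial markers, many of which stem cells express too, summed to 605 and 606 CPM in Bcat_KO, against 544 and 529 CPM in WT, and to 610.1 and 603 CPM in PRMT1_KO, against 486 and 477 CPM in WT_PRMT1. Of the 13 tested, 4 rose and 4 fell in Bcat_KO, and 4 rose and 5 fell in PRMT1_KO, where 17.2% and 32.5% of all genes were called. The 5 defining ones among them summed to 3.56 and 8.20 CPM in Bcat_KO, against 16.2 and 16.6 CPM in WT, and to 9.95 and 10.9 CPM in PRMT1_KO, against 38.3 and 44.6 CPM in WT_PRMT1. Of these 5 markers 2 fell in Bcat_KO, where Stab2 was at 0 in both libraries, and 3 fell in PRMT1_KO. Their part in the Erg values was not tested.

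Hlf, which regulates quiescence of stem cells in the mouse, lay lower in dKO, HOXA9_KO and PRMT1_KO than in their wild-type cells, and its fall was called in dKO. It spans chromosome 11 from 90336536 to 90390895 on the minus strand (ENSMUSG00000003949, 8 exons). It had 132 and 181 CPM in dKO, 201 and 149 CPM in HOXA9_KO and 225 and 221 CPM in Bcat_KO, against 234 and 223 CPM in WT. It had 91.0 and 92.0 CPM in PRMT1_KO, against 122 and 113 CPM in WT_PRMT1. The dKO, HOXA9_KO and PRMT1_KO libraries lay below their own wild-type cells without overlap, and Bcat_KO overlapped WT. Hlf fell by 0.55 ± 0.15 in dKO (adjusted p = 0.0276, 95% interval -0.88 to -0.21), a call lost without dKO S6 (-0.35, adjusted p = 0.0945), WT S1 (0.146) or WT S2 (0.115) and with library-size scaling (0.0715). The values of -0.38 ± 0.15 in HOXA9_KO (adjusted p = 0.183) and -0.36 ± 0.15 in PRMT1_KO (adjusted p = 0.0956) did not pass, and DESeq2 called both (0.0372 and 0.0370).

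The bZIP genes related to Hlf, among them Dbp and Tef of its PAR family, moved in both directions. In PRMT1_KO, Dbp, a clock-controlled member, was at 2.21 and 3.08 CPM, against 8.66 and 8.81 CPM in WT_PRMT1, and fell by 1.72 ± 0.29 (adjusted p = 0.000158). In the same comparison Tef rose by 0.94 ± 0.14 (adjusted p = 6.14e-05), to 54.9 and 55.5 CPM, against 28.3 and 29.2 CPM in WT_PRMT1. Nfil3, a repressor known for its role in lymphoid cells, fell by 1.26 ± 0.19 in Bcat_KO (adjusted p = 0.000301), with 10.7 and 9.43 CPM, against 29.1 and 19.2 CPM in WT.

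Several of the 8 genes also differed between the 2 wild-type groups. In WT_PRMT1 against WT, 3 of 8 were called, 1 higher and 2 lower, where 7.58% of all genes were called (3.71% higher, 3.87% lower). Lmo2 fell by 0.83 ± 0.09 (adjusted p = 9.03e-06), Hlf fell by 0.96 ± 0.15 (adjusted p = 0.00248) and Runx1 rose by 0.36 ± 0.10 (adjusted p = 0.0396). The Hlf call was lost without WT_PRMT1 S11 (0.0553) and the Runx1 call when any 1 of the 4 libraries was left out (adjusted p of 0.0617 to 0.327), with library-size scaling (0.0520) and without the robust option (0.0733). Mecom at -1.34 ± 0.37 (adjusted p = 0.0875) and Prdm16 at -0.70 ± 0.23 (adjusted p = 0.0826) did not pass, and their libraries did not overlap between the 2 groups. DESeq2 called both (0.00275 for Mecom and 0.0469 for Prdm16). Mecom was also called without the robust option (0.0199) and when only those groups were fitted (3.04e-06), and Prdm16 with no filter (0.00986). The wild-type groups belong to different experiments, and what set them apart cannot be told apart from batch. The 7 stromal markers summed to 288 and 559.8 CPM in WT_PRMT1, against 38.0 and 27.6 CPM in WT. Of the 7, 3 were called higher and 0 lower. Col1a1, a collagen gene, was at 144 and 313 CPM in WT_PRMT1, against 2.93 and 2.04 CPM in WT. Col1a2 was at 111 and 216 CPM in WT_PRMT1, against 3.09 and 1.48 CPM in WT. Col3a1 and Postn lay lower in WT_PRMT1, Postn at 2.15 and 1.93 CPM, against 5.70 and 5.04 CPM in WT. Because the wild-type groups differed, PRMT1_KO was tested against WT_PRMT1 alone. Where its levels are set beside those of the first experiment they carry this difference.

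The partner genes of these factors moved in both directions. Of 20 genes that bind the 8 proteins or act with them, all tested, 4 rose and 3 fell in dKO, 3 rose and 1 fell in HOXA9_KO, 7 rose and 1 fell in Bcat_KO, and 6 rose and 6 fell in PRMT1_KO, each against its own wild-type cells. Over all genes, 17.7, 6.73, 17.2 and 32.5% were called in these comparisons. The median log2 fold changes of the partner genes were 0.18, 0.16, 0.32 and 0.12 in the same order, beside the medians over all genes given above. Gata2, a zinc finger factor that keeps stem cells and early progenitors, was at 441 and 554 CPM in dKO, against 216 and 244 CPM in WT, and rose by 1.11 ± 0.10 (adjusted p = 8.10e-07). The rise was 0.80 ± 0.10 in HOXA9_KO (adjusted p = 6.29e-05), and it was 1.29 ± 0.10 in PRMT1_KO (adjusted p = 4.28e-08), where Gata2 was at 220.2 and 224 CPM, against 86.8 and 95.2 CPM in WT_PRMT1. Tal1, the partner of Lmo2, rose by 1.01 ± 0.09 in dKO (adjusted p = 1.01e-06), with 149.9 and 158 CPM, against 72.9 and 80.0 CPM in WT. The E-protein gene Tcf3, whose product pairs with Tal1 and Lyl1, fell by 0.70 ± 0.09 in dKO (adjusted p = 2.21e-05) and by 0.83 ± 0.09 in PRMT1_KO (adjusted p = 1.34e-06). Its fall of 0.36 in HOXA9_KO (adjusted p = 0.0155) was lost without HOXA9_KO S4, WT S1 or WT S2 (adjusted p up to 0.241). Fli1, the ETS factor closest to Erg, rose by 0.69 ± 0.12 in Bcat_KO (adjusted p = 0.000716), with 72.8 and 74.0 CPM, against 45.3 and 45.5 CPM in WT. The related E-protein gene Tcf4 rose there by 0.56 ± 0.09 (adjusted p = 0.000601).

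**Figure D5:**
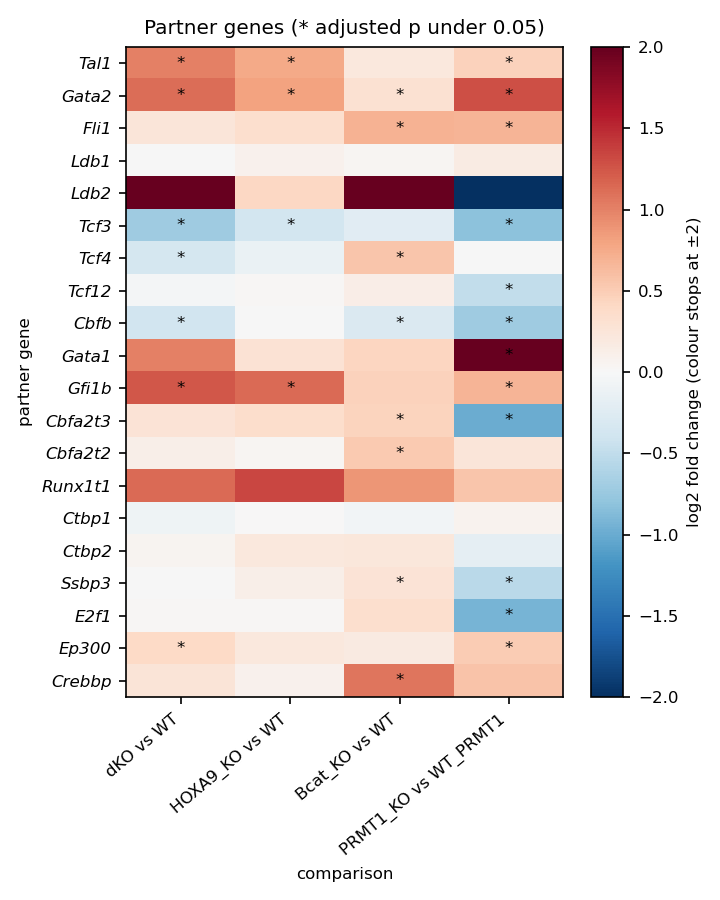
Log2 fold change of the 20 partner genes (rows) in the 4 targeted groups against their own wild-type cells (columns), as colour that stops at 2 in either direction, with asterisks at adjusted p under 0.05. Tal1, Gata2 and Gfi1b are marked higher in dKO, HOXA9_KO and PRMT1_KO, and Tcf3 lower in the same 3 columns. Ldb2 has its dark colour from levels of no more than 1.14 CPM.

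Among the partner genes, Fli1 and Tcf4 were called in the test of departure from additivity. The departures were -0.78 ± 0.16 for Fli1 (adjusted p = 0.00769) and -0.78 ± 0.13 for Tcf4 (adjusted p = 0.00165). They were the 2 of 20 partner genes called in that test, both lower, where 8.43% of all genes were called (4.54% higher, 3.90% lower). As for Runx1, a departure by genotype and one by sex cannot be told apart. Tcf4 had 82.6 and 74.3 CPM in dKO, 92.9 and 89.9 CPM in HOXA9_KO and 136 and 158 CPM in Bcat_KO, against 100.4 and 99.6 CPM in WT. Within the first experiment the Bcat_KO libraries lay highest, and the dKO libraries lay below WT.

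Paralogs of the 8 genes, which include Tal1 and Fli1 again and 31 of which were in the table and 24 tested, gave 4 higher and 3 lower genes in dKO, 3 higher and 1 lower in HOXA9_KO, 4 higher and 5 lower in Bcat_KO, and 6 higher and 5 lower in PRMT1_KO. The shares of all genes called were 17.7, 6.73, 17.2 and 32.5% in the same order. Ets1, an ETS factor of lymphoid cells, fell by 1.05 ± 0.15 in dKO (adjusted p = 9.89e-05) and by 1.75 ± 0.15 in Bcat_KO (adjusted p = 1.55e-06), with 17.3 and 16.2 CPM in Bcat_KO, against 52.6 and 60.2 CPM in WT. Among PR domain genes, Prdm1, which drives plasma cell fate, rose by 2.66 ± 0.45 in dKO (adjusted p = 0.000402), to 9.80 and 4.78 CPM, against 1.05 and 1.25 CPM in WT. Prdm2 fell by 1.06 ± 0.12 in PRMT1_KO (adjusted p = 4.21e-06), with 19.4 and 21.3 CPM, against 43.1 and 41.5 CPM in WT_PRMT1. In that comparison Prdm2 and Prdm16 were called in opposite directions.

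Of 36 other regulators of blood stem cells, 16 rose and 5 fell in dKO, 9 rose and 4 fell in HOXA9_KO, 9 rose and 4 fell in Bcat_KO, and 16 rose and 4 fell in PRMT1_KO. These counts stand beside 17.7, 6.73, 17.2 and 32.5% of all genes called. Median log2 fold changes were 0.41, 0.49, 0.29 and 0.36, beside the medians over all genes given above. Nkx2-3, a homeobox gene, rose by 1.51 ± 0.17 in dKO (adjusted p = 8.32e-06), and Myb, which drives progenitor growth, fell by 0.66 ± 0.09 (adjusted p = 3.45e-05). The list shares Gata2, Gfi1b and Runx1t1 with the partner genes. In WT_PRMT1 against WT, 1 of these 36 genes rose and 11 fell, where 3.71% of all genes were called higher and 3.87% lower. Mecom, Prdm16, Lmo2 and Hlf also had lower values in WT_PRMT1.

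Over the 12 libraries, the genes whose log CPM ran most like each member were read by Pearson's r among 10597 genes, as a description of libraries that share 6 groups, their depth and the scaling. Prdm16 ran most like Scarf1 (0.98), a scavenger receptor gene, then Arhgap29 and Snx14 (both 0.98). Mecom ran most like Tbxas1 (0.97), thromboxane synthase of platelets, and Lmo2 most like Csgalnact1 (0.97). For Ndn the gene was Lonp2 (0.97), a peroxisomal protease, for Hlf Polr2h (0.97), for Erg Dab2ip (0.97), for Lyl1 Pa2g4 (0.94) and for Runx1 Cntrl (0.94), followed by the proliferation gene Mki67 (0.92). No member stood among the 3 nearest genes of another. Between members, r was highest for Hlf with Erg (0.90) and Mecom with Prdm16 (0.90), and lowest for Prdm16 with Lyl1 (-0.78).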

How the data were processed

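The deposited values are raw gene counts. The submitters' processing notes name Trim Galore 0.6.6, STAR 2.7.6a, featureCounts and the build GRCm38/mm10, and the labels name the RNeasy Plus Micro and Ultra II Directional kits. The sources used here do not give aligner settings, annotation release or strandedness. Between 67.1 and 75.9% of nonzero values were even, so both mates of a pair appear to have been counted. Identifiers matched GENCODE M21 for 55230 genes.

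All 12 columns were used, and those named control were read as WT and, with the PRMT1 tag, as WT_PRMT1. Libraries are named by group and S tag. The replicates of a group differed beyond sampling noise (chi-square per degree of freedom 8.10 to 79.6).

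Counts were tested in edgeR 4.0.16 (R 4.3.3): filterByExpr at a minimum count of 10, TMM, 1 mean per group over all 12 libraries (6 residual degrees of freedom), robust quasi-likelihood fit, Benjamini-Hochberg over 17063 genes, 10 comparisons. SE is the absolute log2 fold change over the square root of F, and 95% intervals use the test's degrees of freedom. The robust option was set because it gives the counts of calls that an earlier analysis of these data gave. The script was first tested on simulated counts. Alternatives were DESeq2 1.42.0, RLE and library-size scaling, TMM without mitochondrial and haemoglobin genes, other filters, fits of only the groups compared, each library left out and, chosen after the data were seen, no robust option. The members and lists were chosen with earlier results of these data known. All 8 members were tested in each comparison. Levels of all 8 are given for each targeted group and its wild-type cells, and in the other comparisons mainly called members are named. Up to 4 called genes with the smallest p could be named per list. Promoter windows came from RefSeq tables, which held 7 members. Bases within counted exons were left out of the printed Prdm16 and Runx1 stretches. The Mecom stretch was not trimmed in this way, and 63 of the 250 bases of its window lie in counted exons. Figures used matplotlib 3.10.9 and pandas 2.3.3 in Python 3.11.15.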

Additional observations from a re-analysis of the deposited data

Results flagged for a closer look

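The dKO change of Runx1 differed from the sum of the HOXA9_KO and Bcat_KO changes by -0.81 on the log2 scale (adjusted p = 0.00325, edgeR's quasi-likelihood test of the difference itself). Bcat_KO against WT crosses a difference in sex-typed RNAs and dKO against HOXA9_KO does not, and in the same test 4 of 5 sex-typed genes were called lower (median -4.46), so the departure cannot be told apart from a sex difference. Runx1 stood at 97.4 and 90.4 CPM in dKO and 102 and 102 CPM in HOXA9_KO, and at 149 and 140.4 CPM in Bcat_KO against 94.3 and 85.4 CPM in WT. Bcat_KO also differed from the other groups in its lineage marker sum, 50.9 and 53.4 CPM, and its summed level of olfactory and vomeronasal receptor genes, 11.2 and 15.2 CPM against 137 and 181 CPM in WT. The part of either in the Runx1 value was not tested.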

How the results depend on the processing

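No paired analysis was possible because the columns carry S tags and not the replicate numbers of the titles, so no fit with a replicate block could be made. Of 1024 values of a member under an alternative, 900 kept direction and side of the threshold, 64 lost a call, 35 gained one and 25 changed sign. The rises of Prdm16 and Ndn in dKO and HOXA9_KO, the rise of Runx1 in Bcat_KO, its departure from additivity and the Ndn difference between dKO and PRMT1_KO were called in each alternative run. With each library left out in turn, members called ranged between 2 and 4 in dKO (4 with all libraries), HOXA9_KO gave 2 and 3 (2), Bcat_KO 1 and 2 (3), PRMT1_KO 1 and 3 (5), WT_PRMT1 against WT 1 and 3 (3), and the counts were 0 and 1 in dKO against HOXA9_KO (0), 3 and 6 in dKO against Bcat_KO (5), 2 and 3 in HOXA9_KO against Bcat_KO (3), 1 and 2 for additivity (1), and 1 and 3 for the difference between the dKO and PRMT1_KO changes (3). Without the robust option, 1 member was called in Bcat_KO and 1 in that difference. Mecom gained a call without it in dKO, in PRMT1_KO, in dKO against Bcat_KO and in WT_PRMT1 against WT. In WT_PRMT1 against WT, 5 were called by DESeq2 and 5 when only those groups were fitted. The cause was not tested.

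Values near 0 changed sign. With library-size scaling the Bcat_KO values of Hlf and Lyl1 were 0.0086 and 0.016, against -0.04 and -0.03, and the Lmo2 difference between the dKO and PRMT1_KO changes was 0.017, against -0.10. With no filter Lmo2 in HOXA9_KO was 0.00070, against -0.01. With a library left out, sign changes came for Erg in dKO (-0.13 to 0.20) and HOXA9_KO (-0.020 to 0.19), Runx1 in dKO (-0.0018 to 0.14), Lmo2 in HOXA9_KO (-0.17 to 0.13), Lyl1 in Bcat_KO (-0.11 to 0.019), PRMT1_KO (-0.19 to 0.0032) and WT_PRMT1 against WT (-0.15 to 0.042). In dKO against HOXA9_KO they came for Hlf (-0.41 to 0.085), Erg (-0.21 to 0.11) and Ndn (-0.58 to 0.49), in HOXA9_KO against Bcat_KO for Mecom (-0.070 to 0.60) and Lmo2 (-0.24 to 0.068), for additivity in Hlf (-0.37 to 0.13) and Lmo2 (-0.0043 to 0.28), and in the dKO minus PRMT1_KO difference for Mecom (-0.39 to 0.62).

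Over all genes, calls in dKO against HOXA9_KO were 298, with 613 by DESeq2, 623 with no filter and 3 when only those groups were fitted. Fitting only the groups compared gave 955 departures from additivity, against 1439, 3041 calls in dKO against Bcat_KO, against 4802, and 2294 in WT_PRMT1 against WT, against 1294. With 2 libraries per group, the calls of Hlf and Lyl1 in dKO, Erg in Bcat_KO and PRMT1_KO and Lmo2 in PRMT1_KO were lost with 1 library left out, while the fold of Erg in Bcat_KO stayed between 0.29 and 0.34, that of Lmo2 in PRMT1_KO between 0.24 and 0.32 and that of Lyl1 in dKO between -0.42 and -0.29 on the log2 scale.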
